A study of Mus musculus with 34 samples.

Results

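Open gene ends and end nucleosomes of the meiotic fraction of the mouse testis were followed to mature sperm in mice with intact Gcn5 (Kat2a), the histone acetyltransferase that the series studies. A gene was taken as a member when an interval of the meiotic list lay, with at least 1 bp, within 500 bp of an annotated end of the gene, start or last, in SV129 mice or in C57BL6 GCN5+/+ mice (WT). Of 21887 protein-coding genes searched, 9836 had an open end (a subnucleosome peak) in the meiotic fraction of SV129 and 10406 in that of WT. An end nucleosome (a nucleosome call) was found at 10877 genes in SV129 and 12544 in WT. A gene is called kept when the sperm list of the same background also had an interval of that class at one of its ends, and lost when it had none.

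The assay was ATAC-seq: a transposase, Tn5, inserts sequencing adapters where DNA is accessible. These comparisons used 14 of the 34 libraries and 8 of the 24 deposited interval lists. Lists of round and elongating spermatids and of Gcn5-deleted sperm were read only as further readouts. SV129 was represented by 4 libraries of the meiotic fraction, which are 2 biological replicates with 2 technical repeats each, and by 6 libraries of mature sperm, each a biological replicate. WT was represented by 2 biological replicates at each stage. Per the labels' protocols, SV129 males were 8 to 12 weeks old and 11 of them were pooled for each collection, while nothing on the age or number of the WT males was found in them. Meiotic cells came from testes by velocity sedimentation, in fractions of at least 85% purity, and sperm came from the cauda epididymis after incubation in a buffer that lyses somatic cells. Each reaction held 100000 cells. The stage label of the meiotic fraction calls its cells meiotic spermatids, and the tissue label of the sperm samples is testes. Each group has 1 list per class and no values per library, so differences between lists have no replicate error and no test. Wilson 95% intervals are given for shares. They cover counting error only and treat genes and intervals as independent. Neighbouring genes can share an interval, and nucleosome calls of 1 list can overlap one another.

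In meiosis homologous chromosomes pair and recombine, and much of the genome of these cells is transcribed. After meiosis most histones are replaced, first by transition proteins and then by protamines, and the nucleus is compacted. A fraction of nucleosomes is known to remain in mature sperm, and promoters rich in CpG are among the places where open chromatin and histones have been described there. A subnucleosome fragment is too short to have wrapped a histone octamer. Its peaks are taken here to mark DNA that was free of a nucleosome in at least some of the cells. The fragment length that divided the classes is not given.

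Promoters of the genes with the longest kept and the longest lost open ends are shown first, because the kept and lost sets differed in the share of promoters holding several of the short motifs described further on. The sequences are from RefSeq (GRCm38.p6), from 250 bases before to 50 after an annotated start, 5′ to 3′ on the gene's strand. Capitals mark matches, on either strand, to any of 9 searched motifs, among them GGGCGG (the core bound by SP and KLF factors) and CCAAT (the box bound by NFY). Kept in both backgrounds were Baiap2l1 (chr5:144358063-144358362, minus strand) and Nfya (chr17:48409771-48410070, minus strand). Lost in both were Rab11fip2 (chr19:59943605-59943904, minus strand), Ppp1r13b (chr12:111908006-111908305, minus strand) and Hmgn1 (chr16:96127676-96127975, minus strand). The entry of Oard1, which ranks beside Nfya, starts on the opposite strand of the same stretch and is not repeated.
Baiap2l1: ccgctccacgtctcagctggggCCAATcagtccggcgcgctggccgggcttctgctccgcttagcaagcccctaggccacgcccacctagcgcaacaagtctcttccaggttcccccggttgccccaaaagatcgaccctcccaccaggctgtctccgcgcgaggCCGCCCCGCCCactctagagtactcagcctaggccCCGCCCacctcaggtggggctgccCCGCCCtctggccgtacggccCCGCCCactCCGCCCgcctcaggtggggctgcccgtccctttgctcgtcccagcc
Nfya: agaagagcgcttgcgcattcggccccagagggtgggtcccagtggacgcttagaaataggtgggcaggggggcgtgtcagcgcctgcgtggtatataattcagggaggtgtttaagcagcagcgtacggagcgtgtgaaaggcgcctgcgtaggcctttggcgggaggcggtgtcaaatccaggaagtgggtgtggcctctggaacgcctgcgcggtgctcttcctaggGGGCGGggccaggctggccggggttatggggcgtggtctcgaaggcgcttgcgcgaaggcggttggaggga
Rab11fip2: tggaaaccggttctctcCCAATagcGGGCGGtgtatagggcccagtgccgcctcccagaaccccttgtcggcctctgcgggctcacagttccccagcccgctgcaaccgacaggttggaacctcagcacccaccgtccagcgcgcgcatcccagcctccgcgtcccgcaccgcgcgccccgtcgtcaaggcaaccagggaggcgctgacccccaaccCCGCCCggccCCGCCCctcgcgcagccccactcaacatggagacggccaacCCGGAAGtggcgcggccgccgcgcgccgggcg
Ppp1r13b: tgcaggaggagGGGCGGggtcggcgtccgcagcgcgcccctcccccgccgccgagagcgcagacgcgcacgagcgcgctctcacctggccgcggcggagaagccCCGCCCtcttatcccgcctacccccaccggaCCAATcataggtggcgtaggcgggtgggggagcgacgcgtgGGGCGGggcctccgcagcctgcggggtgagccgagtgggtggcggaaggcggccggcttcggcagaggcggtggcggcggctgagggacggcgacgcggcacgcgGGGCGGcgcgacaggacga
Hmgn1: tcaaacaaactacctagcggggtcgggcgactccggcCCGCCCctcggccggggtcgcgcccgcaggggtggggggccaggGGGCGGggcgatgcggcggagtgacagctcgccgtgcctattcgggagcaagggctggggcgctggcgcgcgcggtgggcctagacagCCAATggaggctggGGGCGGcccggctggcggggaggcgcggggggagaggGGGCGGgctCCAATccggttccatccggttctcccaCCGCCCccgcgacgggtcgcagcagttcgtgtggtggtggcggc

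Meiotic peaks covered all 300 bases of these 5 promoters in both backgrounds. Sperm peaks covered all 300 bases of the Baiap2l1 promoter in both, and 230 bases in SV129 and 300 in WT of the Nfya promoter, but none of the other 3. The kept promoters held 25 CpG each, and the lost ones held 36 (Rab11fip2), 47 (Ppp1r13b) and 37 (Hmgn1). A CCAAT box was present once in Baiap2l1, Rab11fip2 and Ppp1r13b, at 2 places in Hmgn1 and nowhere in the window of Nfya, so these 5 examples do not themselves separate by the box. GGGCGG matched 6 times in Baiap2l1 (overlapping matches counted), once in Nfya and 3 to 5 times in the lost promoters.

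The first question was which open ends were still listed in sperm. In SV129, 4286 of 9836 genes kept an open end, 43.6% (interval 42.6% to 44.6%), and 5550 lost it. In WT, 1693 of 10406 did so, 16.3% (15.6% to 17.0%), and 8713 lost it. The 2 shares cannot be read as a strain difference, since SV129 has 6 sperm libraries and WT has 2, the names of the WT peaks carry the number of 1 library only, and read depth is unknown. Nearly every gene with an open end in sperm already had one in the meiotic fraction, 92.4% of 4640 in SV129 and 96.6% of 1752 in WT.

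Of 9409 genes with a meiotic open end in both backgrounds, 1374 (14.6%) kept it in both, 2883 in SV129 alone, 289 in WT alone, and 4863 (51.7%) in neither. The 1374 genes made up 82.6% of those kept in WT and 32.3% of those kept in SV129. Because neighbours share peaks, they stood for 1247 sperm peaks in SV129 and 1182 in WT. The count was 739 among genes whose end windows overlap no other gene's, and 742 when only peaks at or above the median width of each list were used. Among WT peaks at or above the median deposited score, 10.2% of genes were kept.

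Baiap2l1, which encodes a membrane-bending adaptor of the actin cytoskeleton, came first of the genes kept in both when each gene was ranked by its sperm coverage in the less covered background. Its ends were covered over 637 bp in the meiotic fraction and 494 bp in sperm of SV129, and over 881 and 572 bp in WT. The start of Nfya, the DNA-binding subunit of NFY, and of its divergent neighbour Oard1, which removes ADP-ribose from proteins, had 748 bp in the meiotic fraction and 464 bp in sperm of SV129, and 790 and 522 bp in WT. In all 3 genes the peaks lay at the annotated start, and sperm coverage was below meiotic coverage.

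Pja2 (chr17:64281006-64331883, minus strand), a ubiquitin ligase, went from 607 to 500 bp in SV129 and from 760 to 448 bp in WT. Zfpm1 (chr8:122281856-122337862, plus strand), a cofactor of GATA factors, had 481 and 462 bp in SV129 and 756 and 440 bp in WT. Dact3 (chr7:16875317-16887301, plus strand), a modulator of Wnt signalling, had 380 bp in the meiotic fraction and 415 bp in sperm of SV129, and 456 and 457 bp in WT. In Dact3 sperm coverage was thus no shorter than meiotic coverage in either background.

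The other 4 of the 10 genes were Cdca2 and its neighbour Kctd9, which shared 435 bp of sperm peak in SV129 and 469 bp in WT, Ep400, a chromatin remodelling ATPase with 501 and 402 bp, and Hint2, a mitochondrial hydrolase with 391 and 383 bp. In SV129 the meiotic coverage of Ep400 (382 bp) and Hint2 (292 bp) was shorter than that in sperm, and in WT it was longer (585 and 514 bp). Over all kept genes the median sperm coverage was 168 bp in SV129 (quartiles 118 and 237) and 152 bp in WT (105 and 210), against a meiotic median of 342 and 450 bp.

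Long meiotic open ends were lost too. Rab11fip2, an effector of the recycling GTPase RAB11, was covered over 904 bp in the meiotic fraction of SV129 and 917 bp in that of WT, and over 0 bp in both sperm lists. Ppp1r13b, a partner of p53, had 839 and 943 meiotic bp, and Hmgn1, a protein that binds nucleosomes, had 806 and 811 bp, again with 0 bp in sperm. All 3 were still covered in round spermatids, the haploid cells that follow meiosis, with 267, 359 and 573 bp in SV129 and 729, 564 and 789 bp in WT.

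Ppp6r3 (a regulatory subunit of protein phosphatase 6), Sipa1l2, Ewsr1 (an RNA-binding protein), Acap3 with its divergent neighbour Pusl1, Eif3a (the largest subunit of a translation initiation factor) and Zfp407 completed the 10. Their meiotic coverage ran from 733 to 789 bp in SV129 and from 748 to 963 bp in WT. None had a peak in either sperm list.

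Where the gene's strand was known (17492 genes), the open ends that lasted were mostly starts. An open start was kept at 3493 of 7772 genes in SV129 (44.9%, 43.8% to 46.1%) and at 1392 of 8244 in WT (16.9%, 16.1% to 17.7%). An open last end was kept at 81 of 407 genes in SV129 (19.9%, 16.3% to 24.1%) and at 36 of 488 in WT (7.38%, 5.38% to 10.0%). Kept genes also kept the place: a sperm peak overlapped a meiotic one at 96.1% of the 4286 in SV129 and at 98.3% of the 1693 in WT.

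Counted by interval instead of by gene, retention was likewise highest at gene ends. Of 10193 meiotic peaks centred at a gene end in SV129, 35.0% were overlapped by a sperm peak, against 7.73% of 10637 in the rest of genes and 4.57% of 12154 outside genes. The shares in WT were 13.5% of 10292, 2.54% of 11953 and 2.18% of 13500. Peaks at gene ends were also wider, so widths were compared too. Among peaks of the widest quartile (225 bp or more in SV129, 279 bp or more in WT), 54.1% at gene ends, 25.4% in the rest of genes and 15.8% outside genes were overlapped in SV129, and 20.7%, 8.40% and 8.14% in WT. Gene ends stayed ahead in each quartile of width in SV129. In WT they were ahead in all but the narrowest quartile, where 1.02% at gene ends stood beside 1.41% outside genes.

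**Figure D1:**
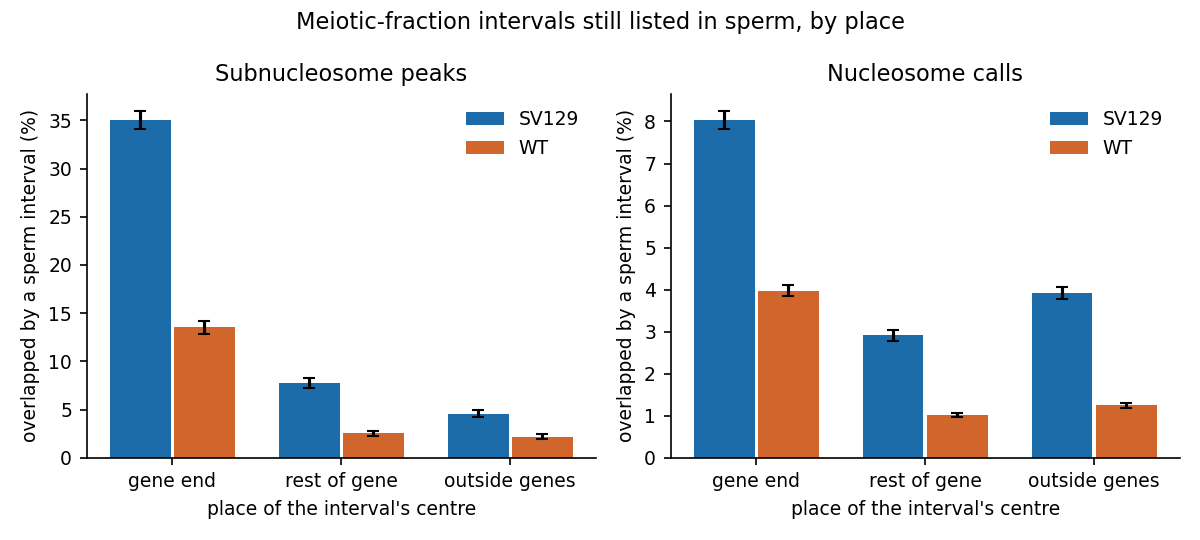
Share of meiotic-fraction intervals overlapped by a sperm interval (y axis, percent) by where the interval's centre lies, for subnucleosome peaks and nucleosome calls; blue bars are SV129, orange bars WT, and error bars are Wilson 95% intervals. Gene ends stand highest in both classes and backgrounds, with 35.0% and 13.5% of peaks and 8.04% and 3.98% of calls. Nucleosome calls can overlap one another, and their bars treat them as independent.

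Retention rose with the covered length of the meiotic open end. In SV129, 17.6% of genes in the lowest quartile of meiotic coverage (1 to 175 bp) kept an open end, 37.4% in the second, 52.6% in the third and 66.7% in the highest (391 bp or more). In WT the shares were 5.50%, 12.96%, 19.5% and 27.1%. The median meiotic coverage of kept genes was 342 bp against 220 bp of lost ones in SV129, and 450 against 329 bp in WT. In WT, where the deposited peaks have a score of unstated scale, kept peaks at gene ends had a median score of 49.5 and lost ones 30.45. Covered length therefore stands beside the results on place, chromosome and function below. Its part in them was not tested, beyond its quartiles or shares at or above its median where given.

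**Figure D2:**
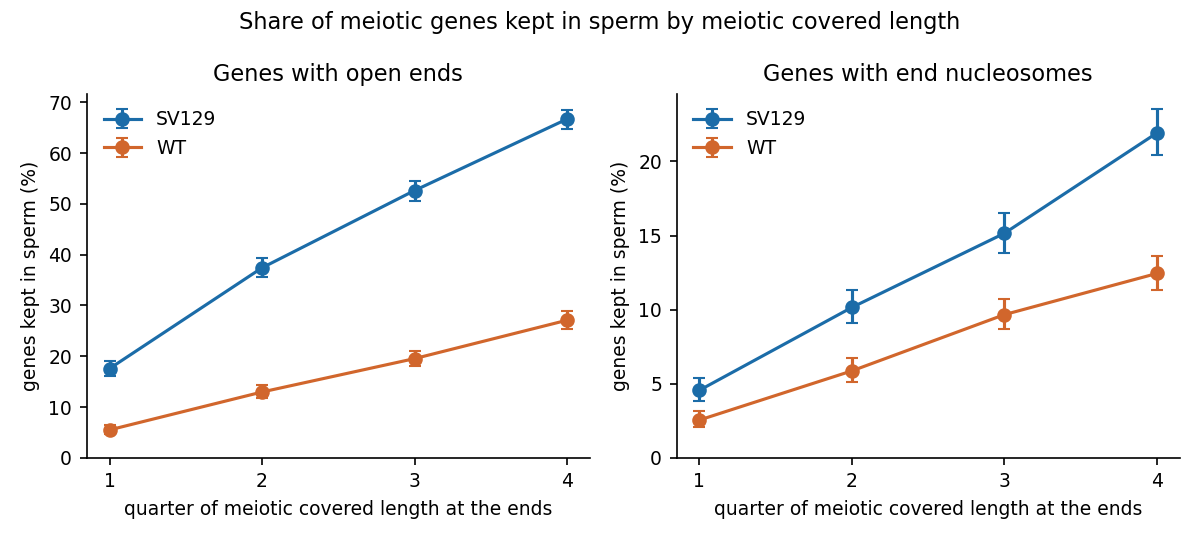
Share of genes with a meiotic open end or end nucleosome that keep it in sperm (y axis, percent) by quartile of meiotic covered length at the gene's ends (x axis, lowest to highest); points are shares, bars Wilson 95% intervals, blue SV129, orange WT. All 4 lines rise, for open ends from 17.6% to 66.7% in SV129 and from 5.50% to 27.1% in WT.

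Around the starts of kept genes, sperm peaks lay slightly upstream of the start, as meiotic peaks did. In SV129 the densest 50 bp bin was the one centred 25 bp upstream, with 243 sperm peak centres per 1000 starts and 234 meiotic ones, and in WT it held 239 and 194. The bin centred 25 bp downstream held 147 sperm and 166 meiotic centres per 1000 in SV129, and 122 and 148 in WT. Sperm peaks of kept genes were thus denser than meiotic ones just upstream of the start and sparser just downstream, in both backgrounds.

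**Figure D3:**
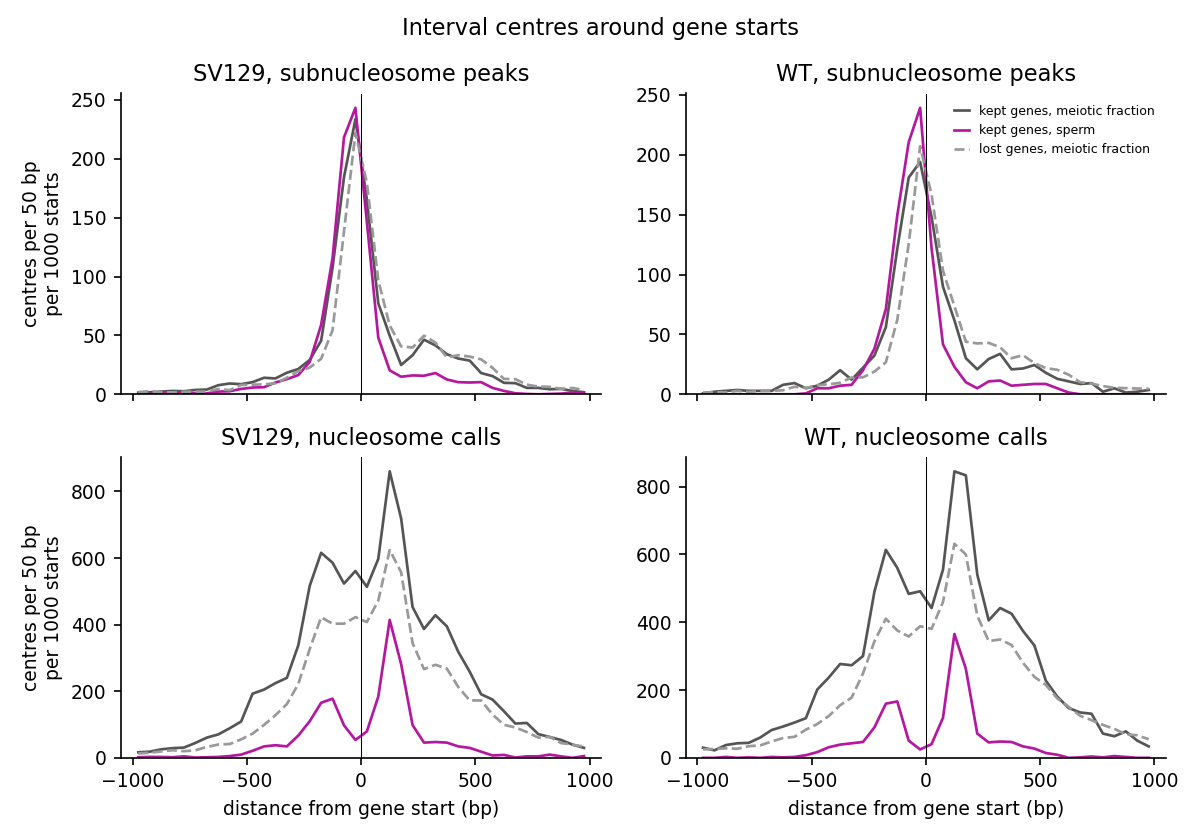
Centres of subnucleosome peaks (top) and nucleosome calls (bottom) per 50 bp and per 1000 gene starts (y axis) by distance from the annotated start (x axis, bp, downstream positive) in SV129 (left) and WT (right); solid lines are kept genes in the meiotic fraction (grey) and in sperm (purple), dashed lines lost genes in the meiotic fraction. Peaks sit just upstream of the start in both stages, and sperm nucleosome calls fall into a pair of shoulders, the taller one centred 125 bp downstream.

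Promoter sequence was compared next, for the 17492 genes with a RefSeq promoter. The CpG ratio, the number of CpG found over that expected from C and G content, had a median of 0.82 for kept and 0.76 for lost open ends in SV129, and 0.83 and 0.78 in WT. Genes without a meiotic open end had 0.27 and 0.26. Kept and lost promoters were thus both CpG-rich and differed little from each other. In the lowest quartile of CpG ratio among open genes, 29.5% were kept in SV129 and 9.64% in WT, whereas the other 3 quartiles lay between 47.4% and 52.4% in SV129 and between 18.5% and 20.7% in WT. In the highest quartile of meiotic coverage the order of the medians turned, with 0.85 for kept and 0.88 for lost genes in SV129 and 0.85 and 0.88 in WT.

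Of the 9 motifs, searched on both strands, the box CCAAT of NFY, a trimeric factor found at many promoters of housekeeping and cell cycle genes, differed most in percentage points. It was present in 49.96% of kept (48.3% to 51.6%) and 35.3% of lost promoters (33.9% to 36.7%) in SV129, and in 54.5% (51.9% to 57.1%) and 39.05% (37.9% to 40.2%) in WT. It occurred in 57.4% of the genes kept in both and in 35.05% of those lost in both, beside 39.2% of all 17492 promoters. The kept promoters were therefore above the level of all promoters (38.5% to 39.9%). Lost promoters were near that level in WT and below it in SV129 and among genes lost in both (33.6% to 36.6%). Promoters of genes without a meiotic open end held the box in 37.0% in SV129 and 36.9% in WT. GGGCGG was present in 72.2% of kept and 60.7% of lost promoters in SV129 and in 72.5% and 63.9% in WT, beside 46.3% of all. Within quartiles of meiotic coverage it was ahead in kept promoters throughout. In WT the intervals of kept and lost promoters overlapped in all 4 quartiles, with 78.05% and 74.4% in the highest, and in SV129 they overlapped in the second only.

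The difference in CCAAT was also present among genes of like meiotic coverage. In the lowest quartile of coverage in SV129 the box was in 42.9% of kept and 33.8% of lost promoters, and in the highest in 55.7% and 36.4%. In WT the lowest quartile held 45.0% and 36.3%, with intervals that overlap, and the highest 59.4% and 39.8%. Kept promoters were ahead in all 4 quartiles of both backgrounds.

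The ETS core CCGGAAG was in 23.5% of kept and 18.3% of lost promoters in SV129 and in 22.9% and 19.4% in WT. The YY1 core AAGATGGC was in 6.27% and 4.56%, and in 7.26% and 4.65%. The NRF1 core GCATGCGC was in 7.64% and 6.01%, and in 7.96% and 6.27%, with overlapping intervals in WT. TATAAA went the other way, with 5.15% of kept and 6.89% of lost promoters in SV129 and 5.16% and 6.66% in WT, where the intervals overlap. The E-box CACGTG, the CRE palindrome TGACGTCA and AACCGTT, the core bound by the meiotic regulator A-MYB, had overlapping intervals of kept and lost promoters in both backgrounds. All 17492 promoters held the ETS core in 11.9%, the YY1 core in 3.21%, the NRF1 core in 3.61%, TATAAA in 13.3%, CACGTG in 7.91%, TGACGTCA in 2.33% and AACCGTT in 0.966%. A match describes the letters in this window and does not show that a factor bound there.

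**Figure D4:**
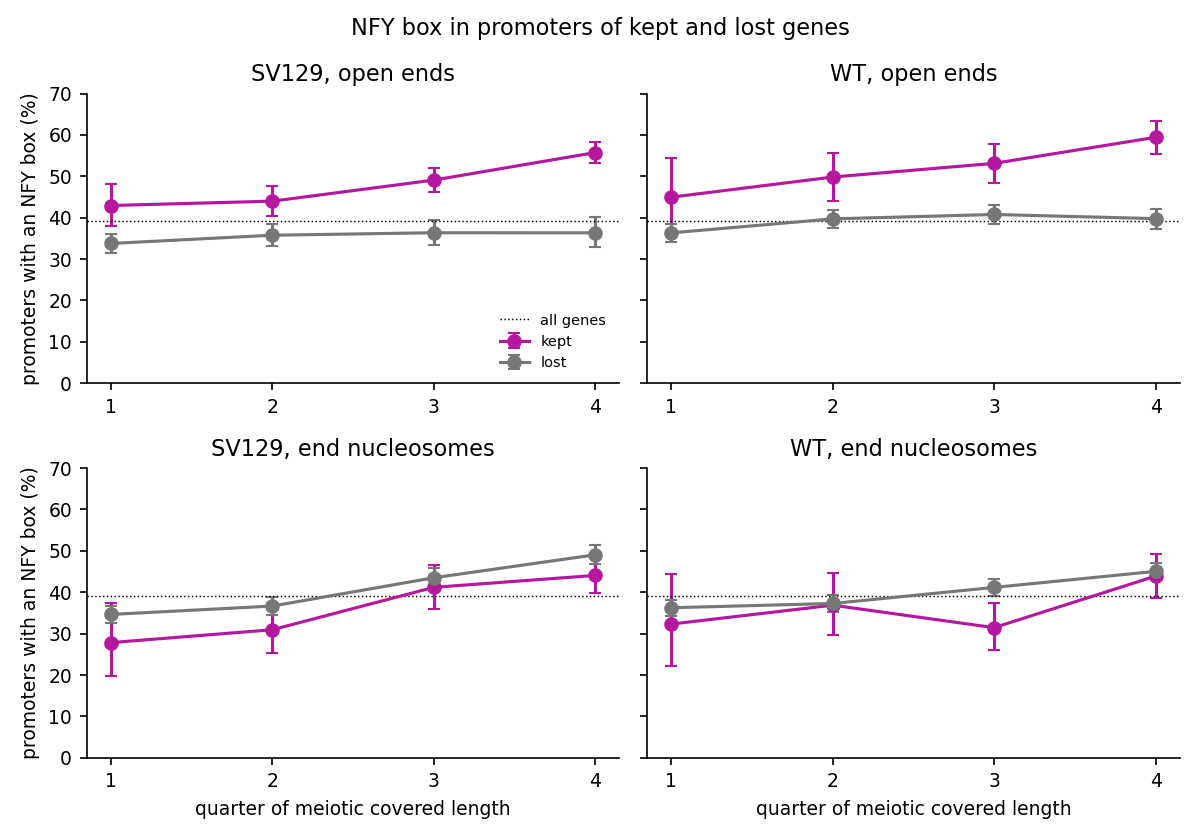
Share of promoters holding the NFY box (y axis, percent) among kept (purple) and lost (grey) genes by quartile of meiotic covered length (x axis); bars are Wilson 95% intervals and the dotted line is the share of all promoters (39.2%). Kept genes lie above lost ones throughout the open-end panels, up to 55.7% against 36.4% in SV129, and do not in the end-nucleosome panels.

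Kept genes lay closer to other genes. The median distance to the nearest other gene was 1.59 kb for kept and 2.76 kb for lost open ends in SV129, and 0.869 and 2.65 kb in WT. An open start with a divergent start within 1 kb upstream was kept in 59.8% of 1020 genes in SV129, against 42.7% of 6752 without one, and in 28.3% of 1042 against 15.2% of 7202 in WT. Such pairs share windows and peaks, and leaving out every gene with a shared window lowered the kept share to 40.2% in SV129 and 13.8% in WT. Gene length differed little, with medians of 23.2 kb for kept and 21.9 kb for lost genes in SV129 and 20.9 and 23.1 kb in WT.

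The X chromosome, which is silenced during male meiosis, kept fewer of its open ends. In SV129, 62 of 321 X-linked genes (19.3%, 15.4% to 24.0%) were kept, against 44.4% of 9508 autosomal genes and 26.6% on the lowest autosome. In WT, 6 of 336 X-linked genes were kept (1.79%, 0.821% to 3.84%), against 16.8% of 10062 and 11.9% on the lowest autosome. Meiotic coverage of the X-linked genes was also shorter, at a median of 232 against 276.5 bp in SV129 and 296.5 against 352 bp in WT, and its part in the result was not tested.

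Lists of round spermatids and of Gcn5-deleted sperm, which the comparison did not use, gave the same order. Kept genes also had longer meiotic coverage, as given above, and its part in this order was not tested. In round spermatids, 95.1% of the genes kept and 69.4% of those lost in SV129 had an open end, and in WT 97.9% and 86.0%, beside 40.1% and 46.5% of all genes. Sperm of C57BL6 GCN5-/- mice (2 libraries), in which a Stra8-driven Cre removes floxed Gcn5 in germ cells, had an open end at 16.5% of the genes kept and 0.252% of those lost in SV129, and at 20.5% and 4.34% of those of WT, beside 3.34% of all genes. The peak lists of elongating spermatids are too short to be compared, with 787 peaks at ends of 19 genes in SV129 and 562 peaks at ends of 10 genes in WT. They held 9 kept and 5 lost genes in SV129 and 4 of each in WT, with overlapping intervals in SV129 (0.1105% to 0.3986% and 0.0385% to 0.2107%) and in WT (0.0919% to 0.6059% and 0.01785% to 0.118%).

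The functions of kept and lost genes were described with 29 gene lists, of which 20 had at least 10 members with a meiotic open end in SV129 and 21 in WT. Most groups that every cell needs were kept above the share of all genes in SV129, with RNA polymerase and Mediator subunits just below it (23 of 55, 41.8%), and genes of meiosis, of spermatids and of body plan were kept below it. Of 19 lists placed in both backgrounds, 9 lay above the share of all genes in both and 6 below it in both. Of the 9, only translation factors had intervals above that share in both backgrounds (46.6% to 70.9% and 16.8% to 38.4%). Of the 6, spermatid and sperm structure and developmental transcription factors had intervals below it in both. Each of the others had an interval holding the share of all genes in at least 1 background. Among genes at or above the median meiotic coverage, 59.6% of all open ends were kept in SV129 and 23.3% in WT, and part of the excess of the lists was gone there. In SV129, 14 lists had at least 10 such members. Of those above the share of all genes before, 8 stayed above it, and the cytosolic and mitochondrial ribosomal proteins and the respiratory chain lay below it (26 of 44, 16 of 34 and 26 of 46). In WT, with 15 such lists, 8 stayed above and splicing factors, SAGA and ATAC subunits and clustered histones lay below it (8 of 38, 3 of 17 and 3 of 16). Intervals of these upper-half shares left out the share of all genes for the aminoacyl-tRNA synthetases (above), meiosis and the other chromatin regulators (both below) in SV129, and for the cytosolic (above) and mitochondrial ribosomal proteins (below) in WT. The lists were drawn up with results of these data known, and their positions are descriptions without a test. With other windows, or with start ends only, 249 of 263 placements of lists of both classes stayed on the same side of all genes.

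Among the charging enzymes of translation, the aminoacyl-tRNA synthetases, 23 of 30 meiotic open ends were kept in SV129 (76.7%, 59.1% to 88.2%) and 7 of 29 in WT (24.1%, 12.2% to 42.1%). With start ends only, 2 of 19 were kept in WT (10.5%), below the 16.9% of all genes there. Tars, the enzyme for threonine, was covered over 370 bp in the meiotic fraction and 238 bp in sperm of SV129, and over 404 and 207 bp in WT. Yars, for tyrosine, had 345 and 141 bp in SV129 and 496 and 280 bp in WT. Gars, for glycine, was lost in both, from 388 bp in SV129 and 459 bp in WT.

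General DNA repair kept 24 of 35 in SV129 (68.6%, 52.0% to 81.45%) and 9 of 36 in WT (25%, 13.75% to 41.1%). Msh3 and Pms2, of mismatch repair, were kept in both. Msh3 had 579 and 355 bp in SV129 and 590 and 123 bp in WT, and Pms2 had 567 and 226 bp, and 750 and 146 bp. Rad50 and Atr, which act in the sensing of DNA breaks, and Apex1, an endonuclease of base excision repair, were lost in both, from 364 to 515 bp in SV129 and from 432 to 475 bp in WT.

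DNA replication kept 23 of 36 in SV129 (63.9%) and 8 of 35 in WT (22.9%), with Gins2, Rpa2 and Rpa3 kept and Cdt1, Orc6 and Pola2 lost in both. Splicing factors kept 36 of 58 (62.1%) and 12 of 60 in WT (interval 11.8% to 31.8%), and translation factors 35 of 59 (59.3%) and 16 of 61 (26.2%). Eef2, an elongation factor, was kept with 174 bp in SV129 sperm and 166 bp in WT sperm. Eif3a, from the same list, was lost in both.

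Cytosolic ribosomal proteins were near all genes in SV129 and above them in WT, with 35 of 75 (46.7%, 35.8% to 57.8%) and 25 of 77 (32.5%, 23.1% to 43.5%). With start ends only the SV129 count was 23 of 54 (42.6%), below the 44.9% of all genes. Of 74 with an open end in both meiotic lists, 18 were kept in both and 32 lost in both. Rpl41 went from 587 to 234 bp in SV129 and from 617 to 191 bp in WT, and Rps19 from 512 to 376 and from 714 to 161 bp, whereas Rpl10, which is X-linked, was lost from 536 bp in SV129 and 576 bp in WT. Mitochondrial ribosomal proteins kept 29 of 65 (44.6%) in SV129 but 6 of 67 (8.96%, 4.17% to 18.2%) in WT, so the 2 kinds of ribosome stood on different sides of all genes in WT. Proteasome subunits kept 19 of 34 (55.9%) and 11 of 34 (32.4%), and the nuclear-coded respiratory chain 53 of 94 (56.4%) and 19 of 99 (19.2%), among them Uqcrq, of complex III, with 304 bp in SV129 sperm and 384 bp in WT sperm.

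Zinc finger genes named by number, most of them coding for DNA-binding repressors, kept 128 of 257 (49.8%) in SV129 and 34 of 273 (12.5%) in WT. The intervals, 43.7% to 55.9% and 9.05% to 16.9%, reach close to or hold the shares of all genes. Subunits of SAGA and ATAC, the complexes that hold GCN5, kept 14 of 26 and 5 of 26 (9 of 22 in SV129, 40.9% and below all genes, with start ends only), with Usp22, the deubiquitinase of SAGA, kept in both (420 bp in SV129 sperm and 262 bp in WT sperm). Other chromatin regulators kept 31 of 96 (32.3%, 23.8% to 42.2%) and 14 of 97 (14.4%). Kdm4b, Chd8 and Kdm4a were kept, and Kdm7a, Sirt7 and the acetyltransferase gene Crebbp lost, in both.

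Genes of meiosis itself mostly lost their open ends. Of 52 found, 44 were open in the meiotic fraction of SV129 and 45 in that of WT, and 8 (18.2%, 9.51% to 32.0%) and 4 (8.89%, 3.51% to 20.7%) were kept. Of all genes 43.6% and 16.3% were kept, and the WT interval of the list holds the latter. Kept in both were Sun1, which anchors telomeres at the nuclear envelope, with 510 and 247 bp in SV129 and 616 and 198 bp in WT, and Mnd1, a helper of strand exchange, with 243 and 183 bp, and 502 and 215 bp. Sycp2, of the chromosome axis, fell from 565 bp to 0 in SV129 and from 550 bp to 0 in WT. Meiob and Rad51ap2, of recombination, were lost from 595 and 701 bp in SV129 and from 613 and 596 bp in WT. The median meiotic coverage of this list was 277.5 bp in SV129 and 346 bp in WT, close to the 276.5 and 352 bp of autosomal genes. Above the median coverage of all genes, 4 of 23 were kept in SV129 (6.98% to 37.1%), against 59.6% of all genes there. In WT 2 of 22 were kept, with an interval (2.53% to 27.8%) that holds the 23.3% of all genes.

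The piRNA pathway, which silences transposons in germ cells, kept 2 of 15 in SV129 (3.74% to 37.9%) and 0 of 15 in WT. A count of 0 allows up to 20% in WT, which holds the 16.3% of all genes. Pld6, Tdrd12 and Mael were lost in both. Genes of spermatid and sperm structure kept 5 of 37 (13.5%) and 2 of 44 (4.55%), here with short meiotic coverage, a median of 178 and 206 bp, and with start ends only 1 of 29 (3.45%) and 0 of 35 were kept. Tssk6, a kinase of spermatids, and Gapdhs, the sperm form of a glycolytic enzyme, were kept in both, with 62 and 165 bp in SV129 sperm and 137 and 149 bp in WT sperm. Clustered replication-dependent histone genes kept 8 of 30 and 8 of 37, and as near-identical copies they are uncertain.

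The developmental transcription factors, Hox genes and clustered protocadherins with a meiotic open end lost it in every case. No developmental transcription factor of 19 in SV129 and 26 in WT was kept. A count of 0 allows up to 15.8% and 11.5%, beside 43.6% and 16.3% kept of all genes. Isl1 was lost from 553 bp in SV129 and 613 bp in WT, and Sox17 from 373 and 369 bp. All 4 Hox cluster genes open in SV129 and all 10 in WT were lost (up to 30% allowed by a count of 0 of 10). Their Wilson intervals, 0 to 49.0% and 0 to 27.75%, hold the shares of all genes. Also lost were 22 and 5 clustered protocadherins. These counts are not independent. Pcdhga8 and Pcdhgb6, for example, are annotated with the same end (chr18:37841873), so 1 peak can count for several genes. These groups had short meiotic coverage, with medians of 176 bp for the developmental factors and 107 bp for the protocadherins in SV129, and its part in the result was not tested. Of imprinted genes 2 of 16 and 1 of 20 were kept, and Inpp5f was the one kept in both. Other genes of cell identity kept some open ends. Pluripotency and germline identity kept 2 of 6 and 1 of 8, with Klf5 kept in both (311 bp in SV129 sperm and 189 bp in WT sperm). Spermatogonia and meiotic entry kept 3 of 8 and 2 of 10, among them Etv5, a factor of spermatogonial stem cells, with 346 and 345 bp.

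**Figure D5:**
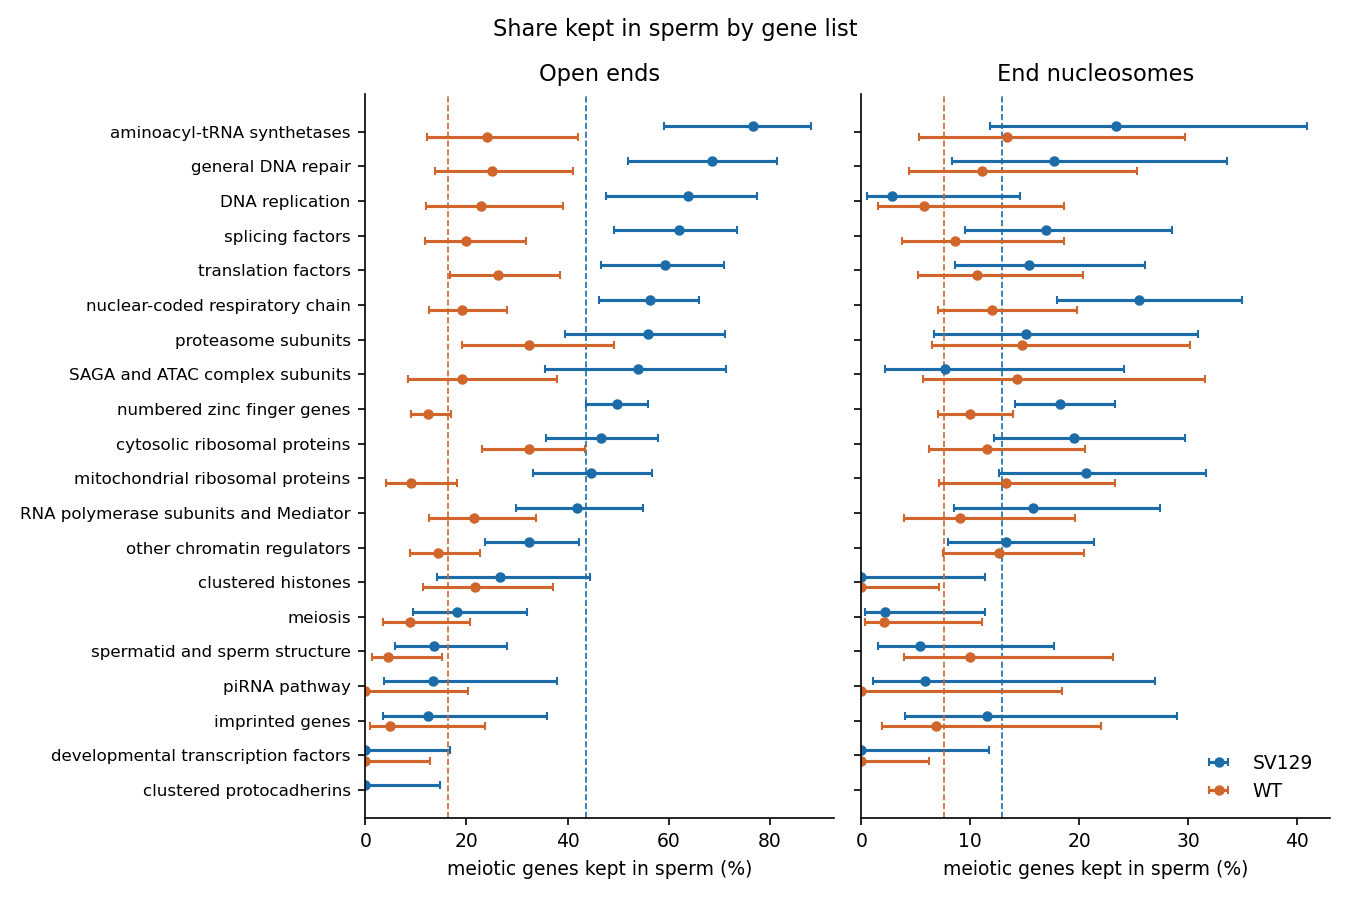
Share of meiotic genes kept in sperm (x axis, percent) for gene lists with at least 15 members having a meiotic open end in SV129, for open ends (left) and end nucleosomes (right); points are shares (drawn where at least 10 members had the meiotic interval), bars Wilson 95% intervals, blue SV129, orange WT, dashed lines the share of all genes. For open ends in SV129 the lists run from 76.7% for aminoacyl-tRNA synthetases down to 0 for developmental transcription factors and clustered protocadherins. Clustered protocadherins can share an annotated end and its peak, and their bar treats them as independent.

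Markers of other cells seldom had a meiotic open end, beside 9836 and 10406 of all 21887 genes in SV129 and WT. Of 22 markers of Sertoli and Leydig cells, 4 had a meiotic open end in either background and 1 was kept in each, and none was kept in both. Of 22 blood and immune markers 1 in SV129 and 0 in WT had one, and of 23 epididymal and epithelial markers 2 and 0. In sperm, open ends were found at 3 epididymal markers in SV129, 2 of them without a meiotic open end, and at 0 in WT. A sperm open end without a meiotic one was also found at 1 Sertoli and Leydig and 1 immune marker in SV129. In WT it was found at 0 of these markers. Among all 21887 genes it was found at 354 in SV129 and 59 in WT. The SV129 shares of the 3 marker lists, resting on 1 or 2 genes each, were thus above that of all genes. The cause of this was not tested. Meiotic end nucleosomes were more frequent at these markers, at 5 of 22 Sertoli and Leydig, 1 of 22 immune and 3 of 23 epididymal markers in SV129 and at 10, 4 and 6 in WT, and none of these was kept. Of all 21887 genes 10877 and 12544 had one, and 12.9% and 7.63% of those kept it. Meiosis genes, by comparison, had a meiotic open end in 44 of 52 and 45 of 52 cases. Accessibility is not expression, so these counts check the label only in part.

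End nucleosomes were kept at fewer genes than open ends. In SV129, 1408 of 10877 genes kept one, 12.9% (12.3% to 13.6%), and 9469 lost it. In WT, 957 of 12544 did, 7.63% (7.18% to 8.11%), and 11587 lost it. Of 10309 genes with an end nucleosome in both meiotic lists, 402 (3.90%) kept one in both, 977 in SV129 alone, 512 in WT alone and 8418 (81.7%) in neither. The 402 made up 29.2% of the genes kept in SV129 and 44.0% of those kept in WT. They numbered 190 among genes that share no end window with another gene.

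The genes with the longest sperm coverage by calls kept in both were 4 with provisional names, Gm21190, Gm21083, LOC100504180 and 4931408C20Rik, with 370 to 966 bp in SV129 sperm and 619 to 779 bp in WT sperm. Genes of this kind can have near-identical copies, and the labels do not say how reads matching several copies were placed, so these values are uncertain. Napepld (chr5:21662901-21701622, minus strand), an enzyme of N-acylethanolamine synthesis, had 825 bp in the meiotic fraction and 390 bp in sperm of SV129, and 765 and 330 bp in WT. Cpsf2, of mRNA 3' end processing, and its divergent neighbour Ndufb1, of respiratory complex I, shared 328 bp in SV129 sperm and 348 bp in WT sperm. Trim39 had 327 and 319 bp in the sperm lists, Sfi1 293 and 283 bp and Ccdc90b 262 and 307 bp.

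The longest meiotic nucleosome coverage lost in both was that of Tcirg1 (chr19:3896050-3907133, minus strand), a subunit of the proton pump, with 1567 bp in SV129 and 1577 bp in WT, both ends counted. Zfp512b had 1430 and 1710 bp, Glyr1, a nucleosome-binding protein, 1357 and 1433 bp, and Hgs, of endosomal sorting, 1435 and 1283 bp. The other 6, Ppp1r27, Ccdc106, Isoc2b, Pacs2, Cog8 and Lrrc45, had 1242 to 1479 bp in SV129 and 1267 to 1482 bp in WT. All 10 had calls at both ends in the meiotic lists and none in sperm.

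End nucleosomes too were kept more often at starts than at last ends. A call at the start was kept at 1137 of 8498 genes in SV129 (13.4%, 12.7% to 14.1%) and 769 of 9603 in WT (8.01%, 7.48% to 8.57%). At the last end the counts were 22 of 833 (2.64%, 1.75% to 3.97%) and 23 of 1820 (1.26%, 0.844% to 1.89%). Sperm calls of kept starts were densest in the bin centred 125 bp downstream, with 414 centres per 1000 starts in SV129 and 365 in WT, and had a lower shoulder 125 bp upstream, with 178 and 166. The 50 bp on either side of the start held on average 66.4 and 32.5 per 1000 and per bin. The downstream bin thus exceeded the centre 6.24 times in SV129 and 11.2 times in WT, against 1.60 and 1.81 times for meiotic calls of the same genes.

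Meiotic coverage moved with retention of nucleosomes as well, from 4.56% in the lowest to 21.9% in the highest quartile in SV129 and from 2.55% to 12.4% in WT. Kept genes had a median meiotic coverage of 545.5 bp and lost ones 380 bp in SV129, and 600 and 427 bp in WT. The CpG ratio was 0.83 and 0.77 in SV129 and 0.82 and 0.76 in WT, in the same order as for open ends. The CCAAT box, by contrast, was in 39.4% of kept and 40.6% of lost promoters in SV129 and in 37.7% and 39.9% in WT, with overlapping intervals. Within quartiles of coverage kept promoters held it less often than lost ones in all 4 of both backgrounds, and the intervals were apart only in the third of WT, with 31.45% (26.0% to 37.5%) and 41.2% (39.2% to 43.2%).

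On X, 6 of 308 genes kept an end nucleosome in SV129 (1.95%, 0.896% to 4.18%) and 0 of 389 in WT, which allows up to 0.771%, against 13.3% and 7.88% on autosomes. The lowest autosomes had 3.07% and 3.78%. The median meiotic coverage on X was 200 and 208 bp, against 400 and 455 bp on autosomes, and its part in the result was not tested. Counted over all meiotic calls instead of gene ends, the gap in SV129 was small, with 4.36% of 3259 calls on X overlapped by a sperm call (3.71% to 5.11%) and 4.86% of 194106 on autosomes (4.76% to 4.96%). In WT the shares were 0.425% of 9174 and 1.83% of 318431. Calls overlap one another, with 199111 calls of 150 bp covering 15.94 Mb in the SV129 meiotic list. The intervals given for calls treat them as independent. In Gcn5-deleted sperm a nucleosome call lay at an end of 83.7% of the genes kept and 47.5% of those lost in SV129, and of 79.0% and 46.7% in WT, beside 35.2% of all genes, in a list of 347951 calls against 8628 for WT sperm. In elongating spermatids a call lay at an end of 54.9% of kept and 48.1% of lost genes of SV129, and of 49.4% and 42.9% of those of WT, each in its own background, beside 39.2% and 35.6% of all genes.

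By function, end nucleosomes followed open ends in part. The nuclear-coded respiratory chain kept 25 of 98 in SV129 (25.5%, 17.9% to 35.0%) and 12 of 100 in WT (12%, 6.999% to 19.8%), among them Sdhd, a subunit of complex II, with 150 and 177 bp in sperm. Mitochondrial ribosomal proteins kept 14 of 68 (20.6%, 12.7% to 31.6%) and 9 of 68 (13.2%, 7.12% to 23.3%), and aminoacyl-tRNA synthetases 7 of 30 and 4 of 30, beside 12.9% and 7.63% of all genes. All 3 lists had long meiotic coverage, with SV129 medians of 530, 517.5 and 567.5 bp against 399 bp of all genes. At or above the median coverage, 18.5% of all genes were kept in SV129 and 11.0% in WT. There the respiratory chain kept 21 of 72 (19.9% to 40.5%) and 10 of 75. Mitochondrial ribosomal proteins kept 11 of 42 and 7 of 45, and the synthetases 7 of 27 and 4 of 21. Only the first of these shares had an interval above that of all genes. Of lists above all genes before, 8 stayed above and 3 lay below in SV129, and 8 and 5 in WT. DNA replication kept 1 of 35 (2.86%, 0.506% to 14.5%) and 2 of 35 nucleosomes (interval 1.58% to 18.6%), and these intervals hold the shares of all genes. Meiosis genes kept 1 of 46 and 1 of 47, and none in both. Spermatid and sperm structure kept 2 of 37 and 4 of 40 (10%, 3.96% to 23.05%, in WT). In WT this list and the mitochondrial ribosomal proteins thus lay above all genes for nucleosomes and below them for open ends. The WT nucleosome intervals of both hold the share of all genes.

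No developmental transcription factor kept an end nucleosome, of 29 in SV129 and 58 in WT. A count of 0 allows up to 10.3% and 5.17%, beside 12.9% and 7.63% kept of all genes. None was kept either of 9 and 17 Hox genes or of 30 and 50 clustered histone genes. The Hox intervals, 0 to 29.9% and 0 to 18.4%, hold the shares of all genes. Nkx6-2 was lost from 859 bp in SV129 and 1104 bp in WT, and Hoxc5 from 479 and 563 bp. Meiotic coverage of the developmental factors was again short, with a median of 200 bp in SV129 and 231 bp in WT. Of imprinted genes 3 of 26 and 2 of 29 kept a nucleosome, and Blcap was the one kept in both.

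Genes that kept an open end kept an end nucleosome more often than those that lost it in SV129, and in WT the intervals overlapped. Of genes with both a meiotic open end and a meiotic end nucleosome, a nucleosome was kept at 20.7% of the 4148 that kept the open end in SV129 (19.5% to 21.9%) and at 9.59% of the 4795 that lost it (8.79% to 10.5%). In WT the shares were 10.6% of 1666 (9.23% to 12.2%) and 8.85% of 8128 (8.25% to 9.48%). Retention of both classes rose with meiotic coverage, and its part in this result was not tested. Both classes were kept in both backgrounds at 61 genes. First of these by the smallest of its 4 sperm values was Mon1b, of vesicle fusion at late endosomes, with open ends of 361 bp in SV129 sperm and 189 bp in WT sperm and nucleosome calls over 501 and 210 bp.

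Sperm open ends without a meiotic one were rare, at 354 genes in SV129 and 59 in WT, of which 16 were shared. This holds for gene ends and not for all sperm peaks. By peak, 47.1% of 10628 in SV129 sperm and 67.7% of 2978 in WT sperm overlapped a meiotic peak. At gene ends the shares were 87.4% and 94.4%, in the rest of genes 24.4% and 39.9%, and outside genes 18.3% and 42.1%. Chac1 (chr2:119351242-119354326, plus strand), an enzyme that breaks down glutathione, had 0 bp in both meiotic lists, 260 bp in SV129 sperm and 232 bp in WT sperm. Ticam1, an adaptor of Toll-like receptors, had 240 and 182 bp in sperm, and Golph3l, a Golgi protein, 160 and 190 bp. Golph3l was already covered in round spermatids, over 333 bp in SV129 and 399 bp in WT, and Chac1 over 144 bp in those of WT. The median CpG ratio of the 12 of these 16 genes with a promoter entry was 0.37, below that of kept genes.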

How the data were processed

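The authors deposited, per group, 1 list of nucleosome calls (each 150 bp wide) and 1 list of subnucleosome peaks, with no values per library. Tools recorded in the submitters' processing notes are STAR 2.5.2a and MACS2 2.1.0.20140616, with no role for either, and the builds are GRCm38 and mm10. The steps that divided fragments, made calls and combined replicates are not given in the sources used here. The deposited score column has no stated scale: it is 0 throughout in the SV129 peaks and close to 0 with many ties in the nucleosome calls, so only the score of the WT peaks was used, for ranking. Read depth is unknown.

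Intervals on the numbered chromosomes, X and Y were set against 21887 protein-coding genes and 17492 promoters (RefSeq, GRCm38.p6) with Python 3.11.15, numpy 2.4.6 and pandas 2.3.3. A gene was counted when an interval overlapped its end window (500 bp on either side) by 1 bp. Covered length is the number of bases of a gene's end windows under intervals. Shares have Wilson 95% intervals, and the limit for a count of 0 is 3 counts over the total. The counting was checked on simulated intervals. For each class the 10 genes with the longest coverage in the less covered background were named (sperm coverage for kept and sperm-only genes, meiotic coverage for lost ones), and up to 3 kept and 3 lost genes per list by meiotic coverage, of which some are not reported here. Members, gene lists and motifs were chosen with earlier results of these data known. Alternatives changed the window, the overlap, the intervals, the genes and the ends used. The quartile comparison of motifs, the X coverage and the shares above the median coverage were added after the shares were seen.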

Additional observations from a re-analysis of the deposited data

Results flagged for a closer look

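Sperm intervals were also present on scaffolds outside chromosomes 1 to 19, X and Y, which no comparison above used. There were 87 such subnucleosome peaks in SV129 sperm and 46 in WT sperm. Nucleosome calls on scaffolds numbered 1513 in SV129 sperm, 11.1% of the list, and 1510 in WT sperm, 17.5% of the list. No control samples or counts per library exist for these scaffolds.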

How the results depend on the processing

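The share of open ends kept in SV129 (43.57%) was 41.86% when the sperm peak had to overlap a meiotic one, 32.97% with the wider peaks of each list, 40.24% among genes with no shared end window and 44.94% with start ends only. In WT (16.27%) it was 11.54% with the wider peaks, 10.19% with the higher deposited scores and 13.77% without shared windows. The open ends kept in both backgrounds (1374) numbered 742 with the wider peaks and 739 without shared windows. The share of end nucleosomes kept in SV129 (12.94%) was 12.26% with overlap required and 11.77% without shared windows, and in WT (7.629%) it was 7.029% with a 250 bp window, 7.063% with overlap required and 5.85% without shared windows. Those kept in both (402) numbered 190 without shared windows. Fewer intervals or genes entered under these settings, and beyond that the cause was not tested. The median promoter GC of kept minus lost genes for WT nucleosomes turned from 0.3333 to -0.3333 percentage points with the 250 bp window. For the gene lists, 256 of 263 alternative shares moved by less than their counting interval. For the promoter and gene properties, 27 of 32 alternatives stayed within 1.5 times the value given, 4 moved further and 1 reversed. These 5 concern promoter GC and the gene length of WT nucleosome genes, which are not compared above. No paired analysis was possible because each group has 1 list with no values per library.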
